A study of Homo sapiens with 6 samples.

Results

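The liver makes most of the proteins that circulate in blood plasma, and 59 genes of 3 such systems were examined: the complement cascade, the coagulation and fibrinolysis cascades, and the acute-phase and transport proteins. The genes were chosen by name, with earlier results of these data known. Of these, 55 were analysed among the 34234 gene symbols with counts, and C8A, C8B, F9 and ITIH1 were not analysed here. The cells were HCCLM3, a human hepatocellular carcinoma line selected for high metastatic potential. Both groups had 3 libraries and received a lentivirus, which carried a control hairpin in shcontrol and a hairpin directed at ATXN7L3, a subunit of a histone H2B deubiquitinating module, in shATXN7L3. All 6 libraries were of this 1 cell line, grown in medium with serum. The labels name 1 hairpin per group and do not give the time of harvest. Nothing in the labels states whether libraries of a group came from separate cultures, so each p-value reflects the spread among the libraries alone, and that spread may be technical.

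Complement is a chain of proteases that ends in a pore in a target membrane. It starts from antibody or sugar patterns (C1R, C1S, the MASP proteases, C2, C4) or from factors B and D, and regulators on the cell surface and in plasma hold it in check. Coagulation starts when tissue factor (F3) meets factor VII (F7), runs through prothrombin (F2) with factor V as its cofactor, and ends with thrombin cutting fibrinogen into fibrin. Plasmin, made from plasminogen by the activators PLAT and PLAU, dissolves fibrin. During inflammation the liver raises one set of plasma proteins, the positive acute-phase proteins such as fibrinogen, haptoglobin (HP) and serum amyloid A (SAA1, SAA2), and lowers another, the negative ones such as transthyretin (TTR). Interleukin 6 acting through STAT3, and the factors C/EBP and HNF4A, are known regulators of these genes in hepatocytes.

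The 3 fibrinogen chain genes are neighbours on chromosome 4 within 50.0 kilobases (154562956 to 154612967, GRCh38), and all 3 fell in shATXN7L3. Their upstream sequences are shown because these genes moved together and because the acute-phase regulators named above are known to bind such sequences. Each is the 250 bases before the RefSeq gene start, 5′ to 3′ on the gene's own strand (RefSeq, GRCh38.p14). Capitals mark matches, on either strand, to the STAT core TTCNNNGAA and the C/EBP motif TTGCNNAA.
FGB: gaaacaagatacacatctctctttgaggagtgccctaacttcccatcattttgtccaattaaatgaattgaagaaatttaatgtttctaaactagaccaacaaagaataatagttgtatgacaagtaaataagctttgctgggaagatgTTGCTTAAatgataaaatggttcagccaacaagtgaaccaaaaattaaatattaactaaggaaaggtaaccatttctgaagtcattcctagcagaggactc
FGA: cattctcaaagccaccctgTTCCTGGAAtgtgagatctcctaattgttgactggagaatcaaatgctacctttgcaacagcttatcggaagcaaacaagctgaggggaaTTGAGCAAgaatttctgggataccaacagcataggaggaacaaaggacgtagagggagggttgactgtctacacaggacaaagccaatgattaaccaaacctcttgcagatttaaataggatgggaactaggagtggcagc
FGG: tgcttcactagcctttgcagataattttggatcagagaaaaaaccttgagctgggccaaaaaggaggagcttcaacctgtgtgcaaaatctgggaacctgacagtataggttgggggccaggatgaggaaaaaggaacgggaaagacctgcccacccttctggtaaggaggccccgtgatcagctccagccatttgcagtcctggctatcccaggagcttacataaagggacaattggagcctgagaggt

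The windows lie at chr4:154562730-154562979 (FGB, plus strand), chr4:154590743-154590992 (FGA, minus strand) and chr4:154612657-154612906 (FGG, minus strand). The counted gene models began 24 bases before the RefSeq start for FGB and FGA and 311 bases before it for FGG. The FGA window held a STAT and a C/EBP match, the FGB window a C/EBP match, and the FGG window neither. This covers exact matches to these patterns alone. Other forms of STAT or C/EBP sites were not searched for, so a window without a match may still hold one. Windows of 300 bases around the start (250 before, 50 after) were found in RefSeq for 46 of the 59 genes. The STAT core was in 10 of these 46 windows (21.7%) and in 7.88% of all 27305 windows of that length. The C/EBP motif was in 9 (19.6%, against 10.6%) and the NF-kB motif (GGG, any 5 bases, then CC) in 28 (60.9%, against 58.0%), with overlapping matches of different motifs each counted. Not all of the 46 belong to tested genes: in the 30 that do, 6 held the STAT core, 6 the C/EBP motif and 22 the NF-kB motif. Among the 10 windows of genes that fell, 2 held the STAT core, 2 the C/EBP motif and 5 the NF-kB motif. Among the 4 windows of genes that rose, these counts were 1, 1 and 3.

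Libraries held 22376867 to 23915783 counts, of which mitochondrially encoded transcripts took 21.7% to 22.9%. The target, ATXN7L3, stood at 36.4, 37.5 and 37.5 CPM (library-scaled counts per 1000000 counts) in shcontrol and 20.6, 20.5 and 19.5 CPM in shATXN7L3, which is 54.5% of the control level (log2 fold change -0.88 ± 0.056, SE; edgeR adjusted p = 6.69e-10). An exact permutation test, two-sided, gave p = 0.1, the smallest that 3 against 3 libraries allow. Hepatocyte markers were present unevenly: ALB stood at 65.2 CPM in shcontrol, while APOA1 reached at most 12 counts in a library. Of the 8 tested hepatocyte markers, which include TTR and FGB of the 59 genes, 7 fell, and the summed level of the 9 listed went from 460 to 513 CPM in shcontrol to 198 to 203 CPM in shATXN7L3. Markers of other cell types were uneven too. In shcontrol PECAM1 stood at 43.7, KDR at 15.5 and LYVE1 at 3.66 CPM (endothelial), CD68 at 100 CPM (macrophage), and LUM at 25.6 and RGS5 at 3.63 CPM (stellate cell and fibroblast). CDH5, VWF, TEK, PTPRC, CD14, CD3E, MS4A1, PDGFRB, COL1A1, DCN and ACTA2 had at most 10 counts in a library. Of 4 tested endothelial markers 1 fell (PECAM1), and their summed level over 7 genes was 61.5 to 66.7 CPM against 46.5 to 48.4 CPM. Of 3 tested macrophage and leukocyte markers 1 fell (LYZ, which reached the filter in the 3 shcontrol libraries and in 0 of shATXN7L3) and 1 rose (CD68), with sums over 7 genes of 90.1 to 110 CPM against 121 to 126 CPM. Of 2 tested stellate cell and fibroblast markers 1 fell (LUM), with sums over 6 genes of 27.0 to 31.6 CPM against 8.17 to 9.33 CPM. Their part in the results below was not tested.

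In shATXN7L3, 7 of 9 tested genes of coagulation factors and fibrinogen were lower and all 3 tested genes of the plasminogen activator system were higher. Of the 13 tested complement genes, 2 were lower and 2 higher. Whether these groups differ from each other was not tested. Of the 37 genes of the 3 systems that passed the filter on low counts, 14 were lower, 5 were higher and 18 did not pass the test (edgeR adjusted p under 0.05). Over all 17935 tested genes, 12% were lower and 12.2% higher, 24.2% in all. Over the 12688 protein-coding ones, the shares were 14.4% and 14.5%, 28.8% in all. Of the 37, 12 were lower by at least 1.5-fold, against 2.90% of all tested genes, and 3 were higher by as much, against 2.39%. The groups did not overlap in 22 of the 37 genes, 16 lower and 6 higher, against 38.3% of all tested genes (18.4% lower and 19.8% higher). The median log2 fold change was -0.36 over the 37 and 0.01 over all tested genes. C8G, TTR and A2M reached the filter in all 3 libraries of one group and in at most 1 of the other. They were thus tested through the group where they are high, and they count among the 37. A filter of 1 CPM in 3 libraries, under which TTR and A2M were not tested, left 27 genes. Of these, 12 were lower and 5 higher (13.2% and 13.5% of all genes). RNA was taken from whole cultures, so fewer cells of a kind and less RNA per cell cannot be told apart. DESeq2 called 12 of the 37 lower and 5 higher (8.94% and 7.83% of all genes), and library-size scaling gave 13 and 6 (8.94% and 16.5%). With no filter, 13 were lower and 5 higher of 55 (6.48% and 6.44% of all genes). Leaving out shcontrol replicate 2 gave 13 and 5 (9.47% and 9.27%). Leaving out shATXN7L3 replicate 1 gave 10 and 4 (8.60% and 9.03%), replicate 2 gave 13 and 4 (8.91% and 8.64%), and replicate 3 gave 11 and 5 (8.49% and 8.47%).

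**Figure D1:**
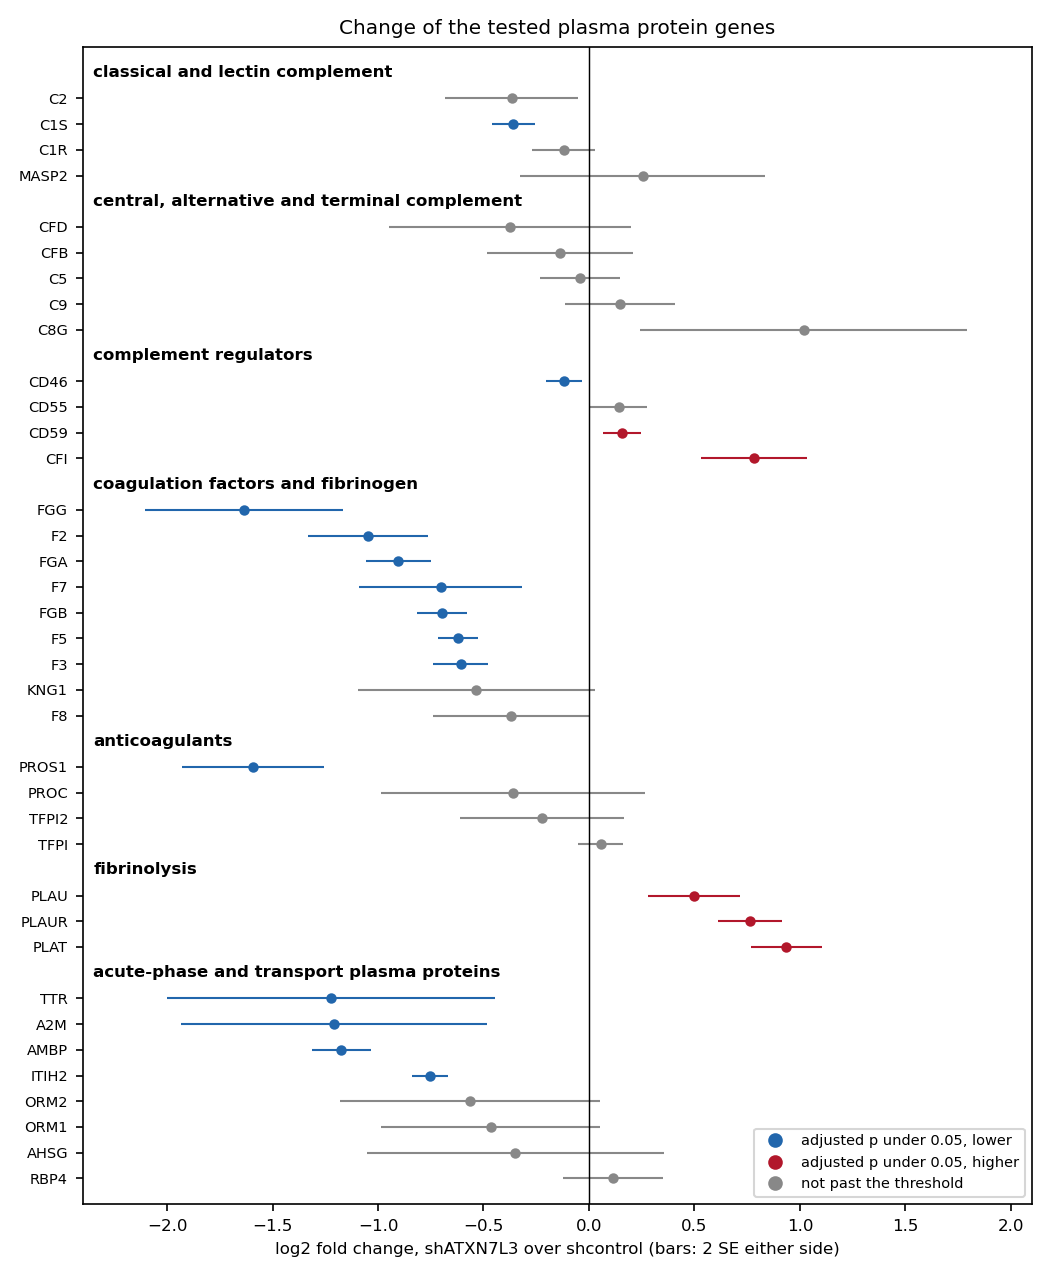
Log2 fold change (shATXN7L3 over shcontrol, x axis) of the 37 tested genes, grouped by cascade, with bars of 2 SE either side. Genes of coagulation lie left of 0 and the 3 tested genes of fibrinolysis lie right of it, from 0.50 to 0.93.

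In the coagulation group, 7 of the 9 tested genes fell and 0 rose (0 also at an unadjusted p under 0.05, with DESeq2 and with limma voom). The shares of all tested genes were 12% lower and 12.2% higher. F5 (chromosome 1, 169514166 to 169586588, minus strand) encodes factor V, the cofactor that speeds thrombin formation. Its libraries read 277, 289 and 310 CPM in shcontrol and 195, 183 and 191 CPM in shATXN7L3, a fall to 65.0% of control (log2 fold change -0.62 ± 0.048, edgeR adjusted p = 9.61e-09). All shATXN7L3 libraries lay well below the lowest control library. F3 (chromosome 1, 94529225 to 94541800, minus strand) encodes tissue factor, the membrane protein that starts coagulation. It stood at 35.8, 30.5 and 35.2 CPM in shcontrol and 21.7, 21.8 and 23.0 CPM in shATXN7L3 (-0.61 ± 0.066, edgeR adjusted p = 1.02e-06). The groups did not overlap, and shcontrol replicate 2 was the lowest of the controls.

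F2, prothrombin (chromosome 11, 46719180 to 46739506, plus strand), went from 5.64, 5.20 and 4.83 CPM to 2.45, 2.16 and 2.97 CPM, 48.4% of control (-1.05 ± 0.14, edgeR adjusted p = 1.65e-05). It changed more than F5 and F3 did, from a lower level. F7, the protease that binds tissue factor, went from 2.76, 2.72 and 2.15 CPM to 1.16, 1.83 and 1.67 CPM (-0.70 ± 0.19, edgeR adjusted p = 0.0111). Without shATXN7L3 replicate 1, the lowest F7 library, its adjusted p was 0.0764. F8, the cofactor missing in haemophilia A, and KNG1, kininogen of the contact system, did not pass the test, with log2 fold changes of -0.37 ± 0.18 and -0.53 ± 0.28. F10, F11, F12 and F13B had at most 5 counts in a library and were not tested, so a difference in them was not detectable at this depth.

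Of the fibrinogen chains, the beta chain gene FGB was the most abundant per length, at 32.9 CPM per kilobase of exon in shcontrol, against 4.65 for FGA and 0.754 for FGG. FGB read 97.1, 87.5 and 82.5 CPM in shcontrol and 54.4, 58.3 and 52.0 CPM in shATXN7L3 (-0.70 ± 0.059, edgeR adjusted p = 4.08e-08). FGA, the alpha chain, read 19.0, 18.5 and 17.6 CPM and then 10.6, 9.75 and 9.12 CPM (-0.90 ± 0.077, edgeR adjusted p = 4.06e-08). FGG, the gamma chain, read 3.38, 2.35 and 2.42 CPM and then 1.20, 0.622 and 0.795 CPM (-1.64 ± 0.23, edgeR adjusted p = 3.16e-05). In none of the 3 did the groups overlap. The chains are assembled in equal numbers in the protein, but their mRNAs were not at equal levels. Per length, FGB exceeded FGA by 7.07 ± 0.339 times in shcontrol and by 8.18 ± 0.642 times in shATXN7L3 (mean ± SD, n = 3). The groups were narrowly apart, with a highest control library of 7.46 times and a lowest knockdown library of 7.48 times. FGA exceeded FGG by 5.12, 7.17 and 6.63 times in the shcontrol libraries and by 8.03, 14.3 and 10.4 times in the shATXN7L3 libraries. The tested genes on either side of the locus did not pass the test: PLRG1, a splicing factor gene, read 61.3 ± 1.09 and 60.8 ± 0.505 CPM (-0.01 ± 0.046, edgeR adjusted p = 0.888), and LRAT, a retinol acyltransferase gene, read 3.69 ± 0.349 and 4.03 ± 0.199 CPM (0.13 ± 0.13, edgeR adjusted p = 0.531).

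**Figure D2:**
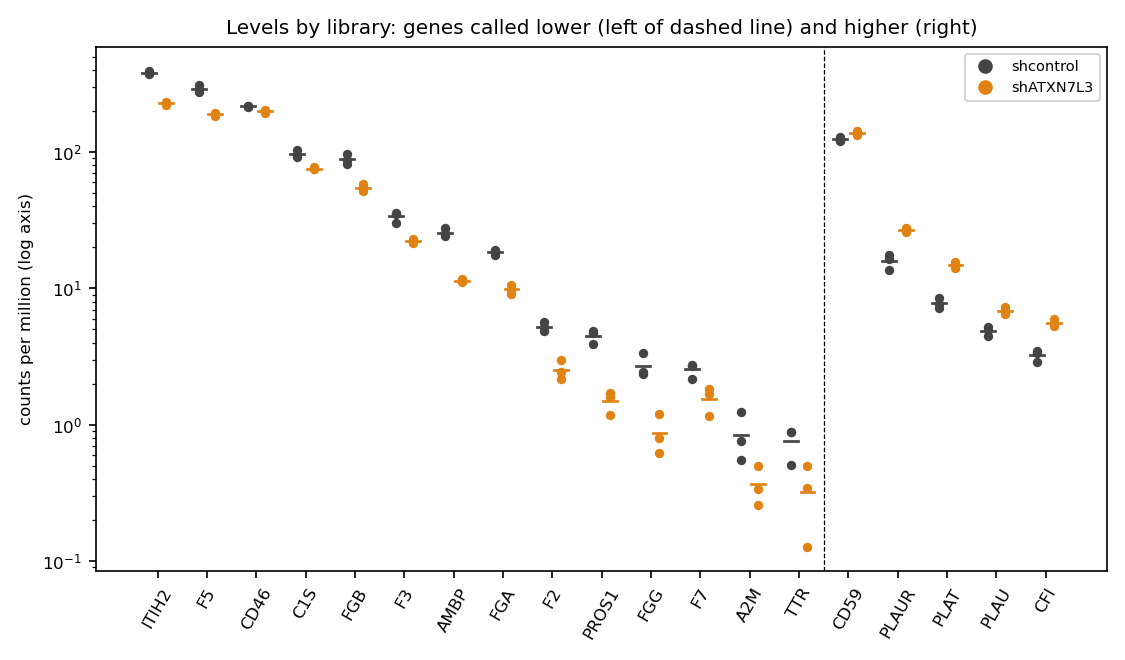
CPM (log axis) in each of the 6 libraries for the 14 genes that were lower and the 5 that were higher in shATXN7L3, with short lines at the mean of 3 libraries. The groups are apart for every gene drawn, narrowly so for CD46, CD59, TTR and A2M.

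Among the anticoagulants, PROS1, protein S, the cofactor of activated protein C, was the 1 of 4 tested genes that fell, and 0 rose (0 also at an unadjusted p under 0.05, with DESeq2 and with limma voom). That share of called genes is near the 24.2% of all tested genes. PROS1 (chromosome 3, 93873033 to 93974066, minus strand) stood at 3.91, 4.74 and 4.83 CPM in shcontrol and 1.59, 1.70 and 1.17 CPM in shATXN7L3, 33.2% of control (-1.59 ± 0.17, edgeR adjusted p = 8.00e-07). The highest shATXN7L3 library was below the lowest control library by a wide margin. TFPI, the inhibitor of the tissue factor complex, was the most abundant of this group per length. It read 162, 172 and 144 CPM in shcontrol and 167, 165 and 166 CPM in shATXN7L3 (0.06 ± 0.053, edgeR adjusted p = 0.493). The interval of ± 2 SE ran from -0.05 to 0.16 on the log2 scale. The ratio of TFPI to F3, both per length, was 1.11, 1.39 and 1.01 in shcontrol and 1.89, 1.85 and 1.77 in shATXN7L3, without overlap. PROC, protein C, and TFPI2 did not pass the test (-0.36 ± 0.31 and -0.22 ± 0.19).

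All 3 tested genes of fibrinolysis rose and 0 fell (0 also at an unadjusted p under 0.05, with DESeq2 and with limma voom). Among all tested genes, 12.2% rose and 12% fell. PLAT, tissue plasminogen activator (chromosome 8, 42175233 to 42207724, minus strand), went from 7.69, 7.18 and 8.44 CPM to 14.8, 15.6 and 14.2 CPM, 191% of control (0.93 ± 0.084, edgeR adjusted p = 8.87e-08). PLAUR, the cell-surface receptor of urokinase (chromosome 19, 43646095 to 43670547, minus strand), went from 17.6, 16.4 and 13.8 CPM to 26.0, 27.1 and 27.9 CPM (0.76 ± 0.075, edgeR adjusted p = 3.28e-07). The 3 shATXN7L3 libraries of each gene were closer to each other than to any control library. PLAU, urokinase itself (chromosome 10, 73909177 to 73917497, plus strand), went from 4.93, 5.25 and 4.44 CPM to 6.84, 6.47 and 7.32 CPM (0.50 ± 0.11, edgeR adjusted p = 0.00211). PLAU overlaps exons of C10orf55 on the opposite strand, and whether counting used strand is not given in the sources used here. Their substrate was hardly present: PLG, plasminogen, had 3 counts over all 6 libraries and was not tested.

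In classical and lectin complement 1 of 4 tested genes passed, a share near the 24.2% of all tested genes. C1S, a protease of the first complement component (chromosome 12, 6988259 to 7071032, plus strand), read 104, 95.9 and 91.7 CPM in shcontrol and 77.3, 75.1 and 75.3 CPM in shATXN7L3 (-0.36 ± 0.051, edgeR adjusted p = 2.66e-05). C1R, its partner protease, lies 9.18 kilobases away and read 21.5, 21.2 and 21.6 CPM against 22.3, 17.7 and 19.3 CPM (-0.12 ± 0.075, edgeR adjusted p = 0.273). C1S shares exon bases with the gene model RP3-461F17.3 on the same strand. The C1R groups overlapped, with shATXN7L3 replicate 1 above all controls. C1R shares exon bases with C1RL on the same strand, which rose (0.35 ± 0.067, edgeR adjusted p = 0.000578), so their reads cannot be told apart there. C2 had separate groups, 2.72 to 3.29 CPM against 2.13 to 2.62 CPM, but did not pass the test (-0.37 ± 0.16, edgeR adjusted p = 0.102). It shares exon bases with CFB. MASP2, a lectin pathway protease, stood under 1.1 CPM in all libraries (0.25 ± 0.29, edgeR adjusted p = 0.580). C4A and C4B, near-identical copies, had at most 14 counts in a library, and MASP1 had at most 9.

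In the central, alternative and terminal part of the cascade, 0 of 5 tested genes passed (edgeR), where 24.2% of all tested genes did. With 5 genes, 0 is not far from that share. At an unadjusted p under 0.05 the count was 1, C8G; limma voom called this 1 and DESeq2 called 0. C8G, the gamma subunit of the eighth component, stood at 0.356, 0.138 and 0.264 CPM in shcontrol and 0.473, 0.498 and 0.586 CPM in shATXN7L3 (1.02 ± 0.39, edgeR adjusted p = 0.0630). These rest on 3 to 14 counts per library. C5, the source of the C5a peptide and the most abundant gene of this part per length, read 9.02, 10.2 and 10.8 CPM in shcontrol and 10.4, 10.1 and 8.70 CPM in shATXN7L3 (-0.04 ± 0.094, edgeR adjusted p = 0.796). Its groups overlapped, and its ± 2 SE interval was -0.23 to 0.15. C9, CFB and CFD had log2 fold changes of 0.15 ± 0.13, -0.14 ± 0.17 and -0.38 ± 0.29. C9 shares exon bases with DAB2 and is uncertain to that extent. C3, the centre of the cascade and abundant in liver, had at most 9 counts in a library.

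The complement regulators split. CFI, the plasma protease that cuts C3b and C4b (chromosome 4, 109740694 to 109802179, minus strand), rose from 3.38, 2.90 and 3.47 CPM to 5.33, 5.93 and 5.52 CPM, 172% of control (0.78 ± 0.12, edgeR adjusted p = 9.88e-05). Among the tested complement genes of the 59, CFI had the highest log2 fold change of those that passed. CD59, which blocks the membrane pore, read 128, 123 and 121 CPM and then 143, 139 and 134 CPM (0.16 ± 0.045, edgeR adjusted p = 0.0138). CD46, the membrane cofactor of CFI, read 214, 218 and 219 CPM and then 205, 194 and 200 CPM (-0.12 ± 0.042, edgeR adjusted p = 0.0472). These shifts are small and their calls were not firm. CD59 shares exon bases with C11orf91 on the same strand. The CD59 call ended without shATXN7L3 replicate 1 (adjusted p = 0.0987) or 2 (0.0515). The CD46 call ended without shcontrol replicate 2 (0.116) or shATXN7L3 replicate 1 (0.0811), 2 (0.201) or 3 (0.150), under library-size scaling (0.213), with no filter (0.0809) and with the replicate block (0.0573). CD55, which speeds the decay of complement convertases, did not pass (0.14 ± 0.067, edgeR adjusted p = 0.143), but did so when shcontrol replicate 1 was left out (0.00597) or under library-size scaling (0.0463).

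Of the 8 tested acute-phase and transport proteins, 4 fell and 0 rose (0 also at an unadjusted p under 0.05, with DESeq2 and with limma voom). Over all tested genes, 12% fell and 12.2% rose. ITIH2, a heavy chain of the inter-alpha-trypsin inhibitors that stabilise hyaluronan (chromosome 10, 7703269 to 7749520, plus strand), was the most abundant of all 37 genes per length, at 114 CPM per kilobase in shcontrol. It read 396, 385 and 373 CPM in shcontrol and 234, 227 and 223 CPM in shATXN7L3 (-0.75 ± 0.043, edgeR adjusted p = 1.41e-10). AMBP, the precursor of the light chain of the same inhibitor (bikunin) and of alpha-1-microglobulin (chromosome 9, 114060127 to 114078472, minus strand), ranked next in this group. It read 27.6, 24.1 and 25.4 CPM and then 11.5, 11.1 and 11.6 CPM, 44.3% of control (-1.17 ± 0.071, edgeR adjusted p = 2.55e-10). The mRNAs of both parts of the inhibitor fell, and in both the groups were far apart. The other heavy chain genes, ITIH3 and ITIH4, had at most 4 and 13 counts in a library.

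TTR, the thyroxine and retinol carrier, and A2M, a broad protease inhibitor, also passed, from low levels. Both were tested through shcontrol, the group where they are high. TTR read 0.889, 0.506 and 0.879 CPM and then 0.344, 0.498 and 0.126 CPM (-1.22 ± 0.39, edgeR adjusted p = 0.0265). A2M read 0.756, 0.552 and 1.23 CPM and then 0.258, 0.498 and 0.335 CPM (-1.21 ± 0.36, edgeR adjusted p = 0.0192). Their groups were separated by less than 0.1 CPM, and both calls depended on single libraries. With DESeq2 the adjusted p was 0.0926 for TTR and 0.0721 for A2M. With edgeR, leaving out control replicate 1 (0.0697) or 3 (0.0673), or knockdown replicate 1 (0.0651) or 3 (0.153), ended the TTR call. For A2M this held for control replicate 3 (0.131) and knockdown replicates 1 (0.0905) and 3 (0.0743). RBP4, the retinol carrier that circulates bound to TTR, did not pass, at 5.73, 6.40 and 4.79 CPM against 6.49, 5.60 and 6.19 CPM (0.11 ± 0.12, edgeR adjusted p = 0.542). The orosomucoids ORM1 and ORM2, near-identical copies, had log2 fold changes of -0.46 ± 0.26 and -0.56 ± 0.31, and AHSG, fetuin A, -0.35 ± 0.35.

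By acute-phase behaviour, both directions contained genes that fell and none that rose, where 12% of all tested genes fell and 12.2% rose. Of the 16 positive acute-phase genes, 7 were tested, and the 3 that fell were the fibrinogen chains (median log2 fold change -0.56). Of the 5 negative acute-phase genes, 4 were tested, and ITIH2 and TTR fell (median -0.55). TTR was tested through shcontrol, the group where it is high. In neither set did a gene rise, also at an unadjusted p under 0.05, with DESeq2 and with limma voom. With 7 and 4 genes tested, that absence is not far from the share of 12.2%. The summed level of the positive set was 112 to 129 CPM in shcontrol and 71.1 to 77.6 CPM in shATXN7L3, most of it FGB. That of the negative set was 379 to 403 CPM and 230 to 242 CPM, most of it ITIH2. Several classical acute-phase genes were near 0 in both groups: HP had at most 2 counts in a library, SAA1 and SAA2 at most 1, and HPX at most 7. SAA1 and SAA2 are near-identical copies, and how reads that map to several genes were counted is not given in the sources used here.

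**Figure D3:**
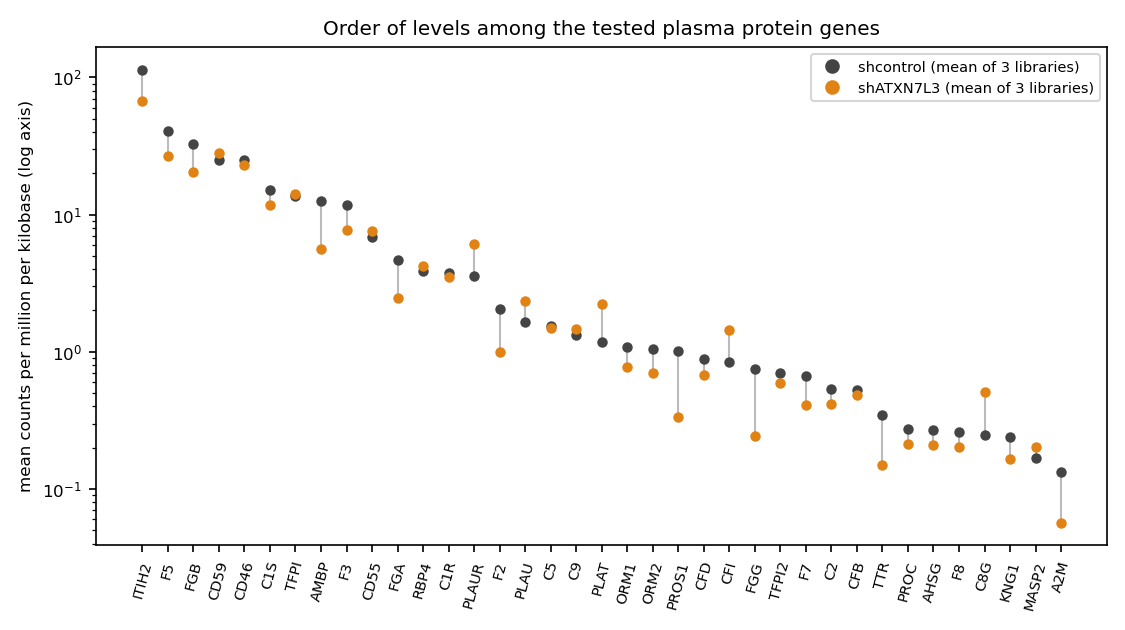
Mean CPM per kilobase of exon (log axis) for the 37 tested genes, ordered by their level in shcontrol, with both groups drawn and joined. The order spans ITIH2 at 114 to A2M at 0.133, and genes that fell are found at both ends.

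Across the 55 genes, the summed level went from 1558 to 1612 CPM in shcontrol to 1241 to 1282 CPM in shATXN7L3. The 50 genes of secreted proteins made up that difference, at 1136 to 1174 CPM against 816 to 843 CPM. Its largest parts were ITIH2 (mean 384 CPM in shcontrol and 228 in shATXN7L3) and F5 (292 and 190 CPM). Of the 32 secreted ones tested, 12 fell and 3 rose, where 12% of all tested genes fell and 12.2% rose. The 5 genes of membrane-bound proteins (CD46, CD55, CD59, F3 and PLAUR) summed to 422 to 438 CPM against 424 to 439 CPM, with F3 and CD46 lower and CD59 and PLAUR higher. Summed over the coagulation group the levels were 439 to 459 CPM and 281 to 289 CPM. Over the fibrinolysis group they were 26.6 to 30.2 CPM and 47.7 to 49.4 CPM. The complement regulators summed to 377 to 388 CPM and 381 to 397 CPM. The 18 genes not kept by the filter had at most 14 counts in any library.

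Other genes of these pathways, listed by function with earlier results of these data known, gave a mixed picture. Of 15 other complement genes tested, 5 fell and 4 rose, where 12% of all tested genes fell and 12.2% rose. Clusterin, CLU, a fluid-phase inhibitor of the membrane pore, was lower, at 318 ± 5.03 CPM against 429 ± 30.9 CPM in shcontrol (-0.43 ± 0.049, edgeR adjusted p = 1.96e-06). The receptor for C5a, C5AR1, rose (0.48 ± 0.13), as did the integrin chains of complement receptors ITGAM (0.85 ± 0.15) and ITGAX (1.77 ± 0.31). ITGAX averaged 0.361 CPM among controls against 1.23 CPM after knockdown, and reached the filter in 1 and 3 of their libraries, so it was tested through the group where it is high. Their shared partner chain ITGB2 fell, from 0.791 to 0.380 CPM (-1.05 ± 0.33). Of 16 other coagulation and fibrinolysis genes, 6 fell and 2 rose, beside the same shares of all tested genes (12% and 12.2%). F2RL1, a protease-activated receptor, rose from 64.5 ± 5.17 to 87.4 ± 1.84 CPM, and PROCR, the protein C receptor, from 54.4 ± 6.31 to 64.7 ± 2.61 CPM. Thrombomodulin, THBD, fell from 11.5 ± 0.739 to 9.33 ± 0.950 CPM, and the protein Z inhibitor SERPINA10 from 1.74 ± 0.165 to 0.704 ± 0.243 CPM.

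In the vitamin K cycle and secretion machinery that mature clotting factors require, 3 of 8 genes were lower and 1 higher. Their log2 fold changes ran from -0.39 to 0.23. The shares over all tested genes, here and for the list that follows, were 12% lower and 12.2% higher. LMAN1, a cargo receptor for factors V and VIII, fell (-0.17 ± 0.044, edgeR adjusted p = 0.00581), and its partner MCFD2 did not pass (0.07 ± 0.043, edgeR adjusted p = 0.301). The carboxylase GGCX did not pass (-0.10 ± 0.044), and VKORC1, the warfarin target, rose (0.23 ± 0.069, edgeR adjusted p = 0.0205). Of 9 other acute-phase and plasma genes tested, 7 fell and 0 rose (0 also at an unadjusted p under 0.05, with DESeq2 and with limma voom). They included the copper carrier CP (584 ± 45.6 to 339 ± 10.6 CPM), the fibrinogen-like hepatokine FGL1 (17.1 ± 0.149 to 7.93 ± 0.478 CPM) and the siderophore binder LCN2 (6.38 ± 0.219 to 2.43 ± 0.298 CPM).

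Of 16 genes of the interleukin 6 and acute-phase control list, 5 rose and 4 fell, where 12.2% of all tested genes rose and 12% fell. SOCS3, a feedback inhibitor induced by STAT3, rose from 5.38, 4.60 and 4.35 CPM to 10.1, 11.2 and 10.9 CPM (1.17 ± 0.10, edgeR adjusted p = 5.91e-08). STAT3 itself rose from 47.1 ± 1.37 to 58.3 ± 0.362 CPM, and the receptor chains LIFR and OSMR rose by 0.88 and 0.41 on the log2 scale. IL6R rose by 0.14. The receptor chain IL6ST (146 ± 18.0 to 129 ± 4.63 CPM, -0.18 ± 0.065, edgeR adjusted p = 0.0472) fell, though its groups overlapped. JAK1 (110 ± 4.69 to 95.4 ± 2.00 CPM, -0.21 ± 0.046, edgeR adjusted p = 0.00217) fell as well. The liver factors HNF4A (43.5 ± 2.30 to 33.4 ± 0.115 CPM) and CEBPA (33.5 ± 3.15 to 24.7 ± 1.56 CPM) also fell. CEBPB (-0.02 ± 0.082) did not pass.

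**Figure D4:**
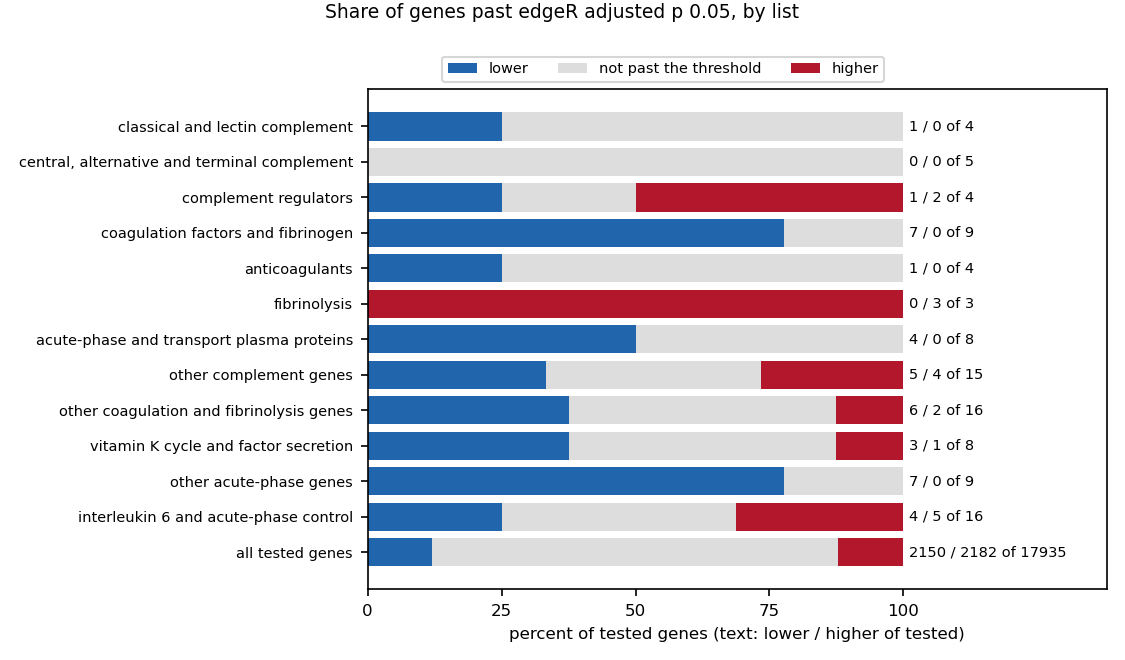
Percent of tested genes that were lower (blue), not past the threshold (grey) or higher (red) in each list, with the counts beside the bars. The bottom bar gives all 17935 tested genes, of which 12% were lower and 12.2% higher.

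The complement and plasma protein genes include further pairs of neighbours. F7 lies 2.13 kilobases from F10, which was too low to test. CD55 and CD46, 365 kilobases apart in the cluster of complement regulators on chromosome 1, differed in sign (0.14 and -0.12). AMBP (-1.17) lies 245 kilobases from ORM1 (-0.46, not past the test). Pairs were formed between listed genes next to each other along a chromosome. Of such pairs within 500 kilobases in which both genes were tested, the fibrinogen pairs were the ones in which both genes passed. The other tested pairs of this kind, C1S with C1R, CD55 with CD46, AMBP with ORM1, ORM1 with ORM2 and C2 with CFB, had at most 1 gene that passed. Pairs with another listed gene between them, such as AHSG with KNG1 and AMBP with ORM2, were not included. AHSG, KNG1 and ORM2 did not pass.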

How the data were processed

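Poly-A RNA from 6 HCCLM3 libraries was sequenced. The authors deposited raw read counts per gene symbol, 1 table for the series. Tools listed in the submitters' processing notes are STAR 2.5.3a, Trimmomatic 0.36, Subread 1.5.1 (with featureCounts) and edgeR 3.12.1, with the build GRCh38. For annotation release, strand and multi-mapping settings, the entry is: not given in the sources used here. Coordinates and exonic lengths come with the deposited counts, per the file headers. Samples were grouped by their treatment and numbered by their titles.

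Genes were kept with filterByExpr (minimum count 10, total 15), leaving 17935. Groups were compared with the quasi-likelihood test of edgeR 4.0.16 (R 4.3.3), with TMM scaling, group as the only term and Benjamini-Hochberg adjustment over all tested genes (threshold 0.05). Levels are TMM-scaled CPM, divided by exonic kilobases where genes are compared. The SE of a log2 fold change is its size over the square root of F, an approximation. The permutation test used log2(CPM + 1). Replicate pairs differed by more than sampling noise (chi-square per gene 1.59 to 6.52, where noise gives 1). The common biological coefficient of variation was 4.37%. Alternatives included DESeq2 1.42.0 and limma voom 3.58.1. The code was tested on simulated data. Promoter windows came from RefSeq (GRCh38.p14). Values in every library are given for genes that passed at 5 CPM or more and for the most abundant gene of each group; FGG, F7, PROS1, C8G, TTR, A2M and RBP4 were added after their values were seen, as were C1R and SOCS3. The genes and lists were chosen with earlier results of these data known. Results for some listed genes and for 1 planned motif are not reported here.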

Additional observations from a re-analysis of the deposited data

How the results depend on the processing

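The target stayed lower, and more plasma protein genes were lower than higher, under the 14 alternatives to scaling, filter, tool, block and libraries. Except with library size alone, given below, the split over all genes was near even, and its direction turned. It was 2219 lower and 2104 higher with DESeq2 size factors, and 2251 and 2070 with upper-quartile scaling. With no filter it was 2217 and 2203, and without shcontrol replicate 3 it was 2257 and 2105, among others. Leaving out 1 library at a time gave 3090 to 4405 genes called in all (4332 with all libraries), 10 to 13 of the plasma protein genes lower, 4 to 7 higher, and a log2 fold change of ATXN7L3 of -0.89 to -0.85. DESeq2 called 1603 genes lower and 1405 higher, of them 12 and 5 plasma protein genes. Scaling by library size alone moved the split over all genes from 2150 lower and 2182 higher to 1604 and 2955, and that of the plasma protein genes from 14 and 5 to 13 and 6. Same-numbered libraries of the groups did not deviate together (Pearson r of their deviations over genes -0.0575, 0.0111 and 0.0700), and not every library correlated best with its own number, so they share only a number. With the replicate number as a block, 4328 genes were called in all, 13 plasma protein genes were lower and 5 higher, and ATXN7L3 stood at -0.88. Without genes that share exon bases on the same strand or are near-identical copies, 13 were lower and 4 higher of 28 tested. Genes that share exon bases on the opposite strand alone, among them PLAU and A2M, were kept in that count. Restricted, after seeing the data, to 17 genes with a mean of at least 5 CPM, 8 were lower and 4 higher, where 14.7% and 15.3% of all genes at that level were; fewer genes are tested there. Of the 19 genes called, 14 kept their call in all 14 alternatives and none of the 19 changed sign; the 5 that lost it in some are CD46, CD59, F7, TTR and A2M, of which TTR and A2M were not tested under the CPM filter. Of the genes that did not pass, C5, TFPI, C8G and CD55 were recomputed, and C5 and TFPI changed sign. C5 went to 0.000790 with library size alone, to 0.015 without shcontrol replicate 3 and to 0.033 without shATXN7L3 replicate 3, and ranged from -0.11 to 0.033 over all left-out libraries. TFPI went to -0.014 without shcontrol replicate 3 and ranged from -0.014 to 0.12; the cause was not tested. C8G passed without shcontrol replicate 1 (1.34, edgeR adjusted p = 0.0443) and with limma voom (1.05, adjusted p = 0.0487). Depth limits the 18 genes with at most 14 counts in a library, for which no difference could be measured. For the near-identical copies among them (C4A, C4B, SAA1 and SAA2), the treatment of multi-mapping reads, which is not given, may also limit the counts.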
